A study of Zea mays with 56 samples.

Results

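RLG00011 is a family of Gypsy elements annotated in the maize inbred W22, and its 765 members were taken from the 60247 transposable elements (TEs) of the deposited count table. A member is an element whose identifier starts with RLG00011 and lacks the tag zmB, which marks elements of the B chromosome annotation. No element with that tag carried the code RLG00011. The family was picked because RLG00011Zm00004b00200 and RLG00011Zm00004b00287 had the steepest rises per B chromosome of all elements without the tag (ranks 1 and 2 of 4847), so those 2 slopes are descriptions here and not tests. The question asked was whether the rest of the family rises with them.

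Gypsy elements are long terminal repeat retrotransposons. They move by copying their RNA into DNA that inserts elsewhere, so a family consists of many related copies, and plants keep most of these copies silent through DNA methylation and small RNAs. B chromosomes are supernumerary maize chromosomes that the plant does not need and that differ in number between plants. They carry retrotransposons too, many of them related to elements of the regular A chromosomes.

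Leaves of 28 greenhouse-grown W22 plants, 45 days old, were profiled by RNA-seq. The 24 carriers comprised 4 plants at each number from 1 to 4 copies (1B to 4B), 2 plants with 5 copies (5B) and 3 plants each with 6 (6B) and 7 copies (7B), and 4 control plants had no B chromosome. Per the series' design text, seedlings had been screened for B chromosomes by fluorescence in situ hybridization. Every control has a plant code of a D series and every carrier a code of an EB series, so plant source and B presence cannot be told apart. Library totals ranged from 738507 to 1623250 TE counts, and 1 count was worth 0.617 to 1.29 CPM, the count scaled to a common library size with TMM factors. The copy-number labels were checked on 418 genes with B-type identifiers (Zm00044a) that were listed at 0 in all controls. Their summed level was 136 to 187 FPKM in 1B plants and 871 to 944 FPKM in 7B plants. Some neighbouring groups overlapped, with 527 to 620 FPKM in 4B, 615 to 722 FPKM in 5B and 685 to 794 FPKM in 6B plants. The check thus did not separate 5B from 4B or 6B plant by plant. The leaf label was not checked against marker genes, because the gene identifiers come without names in the files.

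The summed RNA level of the family had a slope with B copy number smaller than its standard error in the TMM-scaled data, and most of it came from a few abundant members. That slope depends on the scaling and on the most abundant member, as given below. The summed level of all 765 members averaged 1380.4 ± 119 CPM in controls, 1410.2 ± 16.3 CPM at 1 copy, 1427 ± 116 CPM at 2, 1429 ± 89.7 CPM at 3, 1417 ± 94.0 CPM at 4, 1448 ± 232 CPM at 5, 1435 ± 128 CPM at 6 and 1488 ± 30.9 CPM at 7 copies (SD). The groups overlapped, and 9 of 24 carriers lay above the highest control. The slope among carriers was 0.0090 log2 units per B copy, with a standard error of 0.0095. It was 0.017 with RLE size factors, 0.031 with spike-in scaling, 0.037 without RLG00011Zm00004b00755, the member with the most counts, 0.023 without Control replicates 2 and 4 and 1B replicate 3, and 0.0069 (without 5B replicate 2) to 0.021 (without 2B replicate 4) with 1 library left out. The log2 ratio of carriers to controls was 0.06, which is less than the spread between plants of a group (0.11). That ratio was 0.39 with spike-in scaling, which also put the median of all TEs at 0.38, and 0.22 without RLG00011Zm00004b00755. Between 0.0742% and 0.191% of each library's TE counts fell on members.

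Of the 765 members, 102 had no count in any plant, 643 had counts but stayed under the filter on low counts, and 20 were tested. The 5 most abundant members held 79.6% of the family's counts, and the 643 low ones held 13.4%. The filter admitted an element once as few as 2 libraries reached 8.28 CPM. For the filter alone, CPM was taken on library totals without TMM factors, so it can differ from the levels printed here. Of the 20 tested members, 13 passed only through carriers and 7 would also have passed on the controls alone. Counts over the 20 are therefore shaped by the filter.

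**Figure D1:**
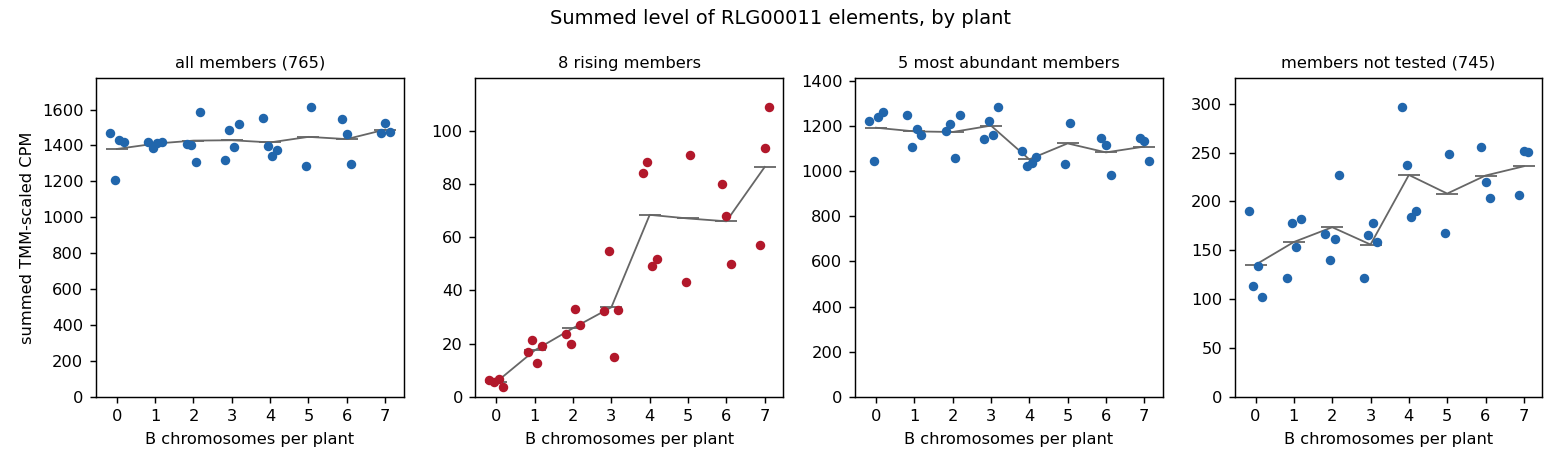
Summed TMM-scaled CPM (vertical axes, starting at 0) against the number of B chromosomes per plant for all 765 members, the 8 that rose with copy number, the 5 most abundant and the 745 not tested; each point is a plant and each line joins group means. The group means of all members lie between 1380.4 and 1488 CPM, the 8 rising members average 5.54 CPM with 0 copies and 86.4 CPM with 7, and the members not tested average 135 CPM with 0 copies and 236 CPM with 7.

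A small set of members rose with B dosage. Among carriers, 8 of the 20 tested members rose per added copy and 0 fell (edgeR quasi-likelihood test, adjusted p under 0.05 over 5074 TEs). Across all tested TEs, 8.97% rose and 3.59% fell. All 8 rising members were among the 13 that passed the filter only through carriers, and 0 of the 7 that would also have passed on controls alone rose. Except for RLG00011Zm00004b00433, the 8 rising members would not have passed the filter on 1B to 3B plants alone. RLG00011Zm00004b00540 exceeded 8.28 CPM there only in 3B replicate 2, and the rest stayed under that level. Their admission and their slopes thus rest on the same 4B to 7B values, so the count of 8 is shaped by the filter. Without a filter, 7 of the 8 passed the dosage threshold. Of the other 12 members, 1 had an unadjusted p under 0.05, with a slope below 0. Without the 2 leading elements the count was 6 of 18. The family was chosen on this contrast, so nothing is read from these counts against the background. The median slope was 0.07 log2 units per copy over the 20 members and -0.01 over all TEs tested. The count was 5 without 7B replicate 3, the plant with the highest summed level of these members: RLG00011Zm00004b00280 and RLG00011Zm00004b00433 then missed the threshold, and RLG00011Zm00004b00200 fell under the filter.

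The 2 leading elements were close to silent in plants with few B chromosomes. RLG00011Zm00004b00287, an element of 6766 bp, had 0, 1.09, 0 and 0 CPM in controls, 0, 0.687, 0 and 1.59 CPM in 1B plants, 0, 1.98, 3.65 and 2.36 CPM in 2B and 1.15, 0, 0.887 and 0 CPM in 3B. It had 7.41, 7.36, 5.89 and 6.23 CPM in 4B plants, 3.40 and 11.2 CPM in 5B, 12.4, 8.41 and 4.27 CPM in 6B and 8.14, 9.42 and 14.5 CPM in 7B. Plants with 1 or 3 copies stayed at or under 1.59 CPM, and every plant with at least 4 copies lay above the highest control. The highest plant with 2 copies, at 3.65 CPM, exceeded the lowest one with 5. The slope was 0.56 ± 0.10 log2 units per copy (SE).

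RLG00011Zm00004b00200, of 11524 bp, had 1.36, 0, 0.749 and 0 CPM in controls. It had 0, 0.687, 0 and 0 CPM in 1B plants, 2.60, 0.990, 0.731 and 1.18 CPM in 2B, 1.15, 0.999, 0 and 2.50 CPM in 3B, 3.70, 4.20, 5.15 and 4.16 CPM in 4B, 0 and 6.55 CPM in 5B, 2.47, 3.06 and 2.85 CPM in 6B and 3.62, 13.3 and 11.7 CPM in 7B. A plant with 5 copies had no count, and 7B replicates 2 and 3 were the highest plants. The slope was 0.56 ± 0.11 per copy. These levels rest on few reads: the element had 90 counts in the 24 carriers and 3 in the 4 controls.

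**Figure D2:**
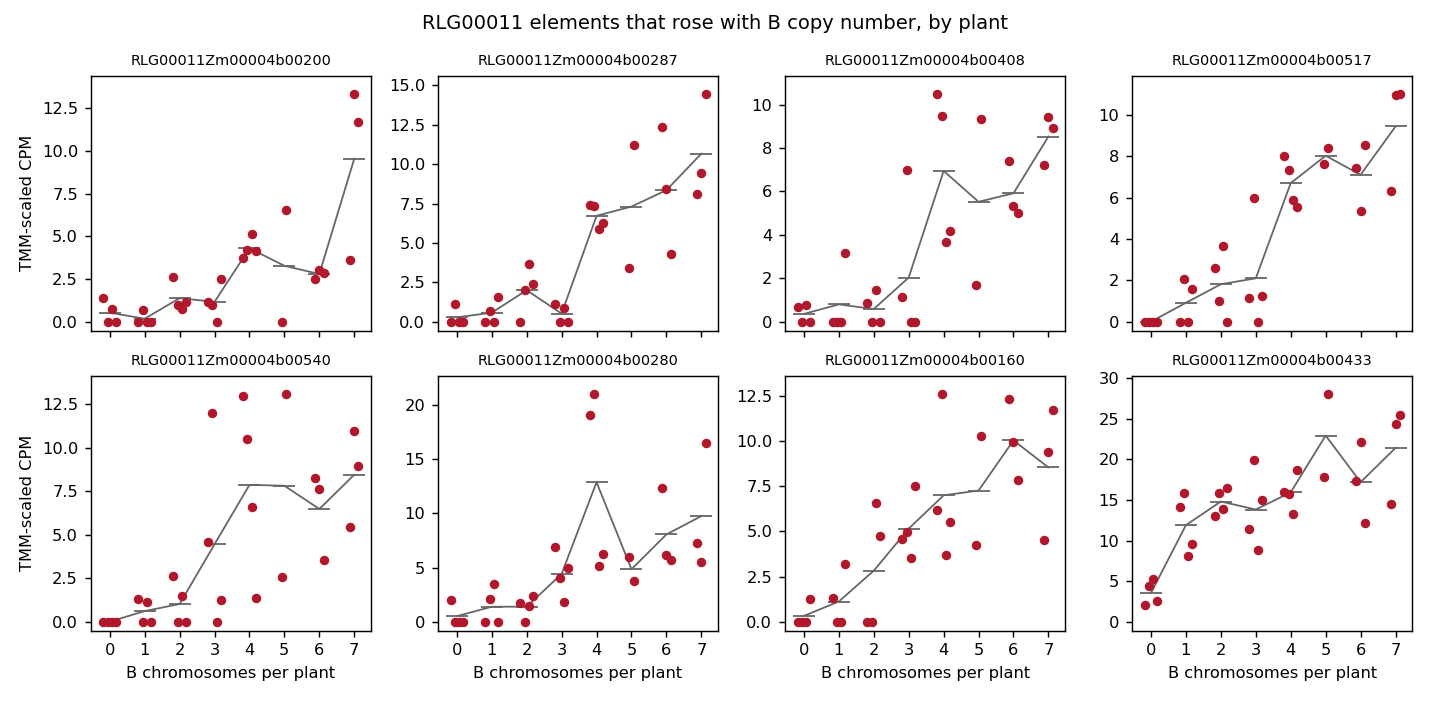
TMM-scaled CPM (vertical axes) of the 8 RLG00011 elements that rose with copy number against the number of B chromosomes per plant, ordered by slope; points are plants and lines join group means. In all panels except that of RLG00011Zm00004b00433 the controls and most 1B plants lie at or near 0, and the 7B means lie between 8.45 and 10.7 CPM.

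The other 6 rising members had slopes of 0.13 to 0.49 log2 units per copy. RLG00011Zm00004b00517 (9073 bp) had 0 counts in every control and averaged 0.913 ± 1.07 CPM at 1 copy, 1.81 ± 1.63 CPM at 2, 2.10 ± 2.66 CPM at 3 and 6.70 ± 1.18 CPM at 4 copies (SD, n = 4 each). It averaged 8.03 ± 0.548 CPM at 5 copies (SD, n = 2), 7.11 ± 1.62 CPM at 6 and 9.44 ± 2.70 CPM at 7 copies (SD, n = 3 each). Its slope was 0.46 ± 0.09. RLG00011Zm00004b00540 (9654 bp) was likewise without counts in all 4 controls, and it averaged 0.610 ± 0.707 CPM in 1B and 8.45 ± 2.81 CPM in 7B, with a slope of 0.44 ± 0.12. Its plants varied more, with 11.98 CPM in 3B replicate 2 and 1.39 CPM in 4B replicate 4.

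RLG00011Zm00004b00408 (9644 bp) averaged 0.795 ± 1.59 CPM in 1B and 8.53 ± 1.15 CPM in 7B (slope 0.49 ± 0.12). RLG00011Zm00004b00160 (11380 bp) climbed more evenly, with group means of 1.12, 2.82, 5.16, 7.00, 7.27, 10.04 and 8.55 CPM at 1 to 7 copies (slope 0.38 ± 0.09). RLG00011Zm00004b00280 (6373 bp) peaked outside the 7B group: it had 19.1 and 21.0 CPM in 4B replicates 1 and 2 and 16.5 CPM in 7B replicate 3, against 0 to 3.45 CPM in 1B plants (slope 0.39 ± 0.11). The group means of these members thus do not all follow the copy number step by step.

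RLG00011Zm00004b00433 differed from the other 7 in its starting level. It was the shortest of the rising members, at 3724 bp, and the only one with counts in every plant. It averaged 3.55 ± 1.504 CPM in controls (SD, n = 4), 11.9 ± 3.69 CPM in 1B (n = 4) and 21.4 ± 6.05 CPM in 7B (n = 3), with a slope of 0.13 ± 0.04. Among the 8, it had the smallest slope (rank 522 of 5074) but the highest level per length, with 4.26 RPKM in carriers against 0.257 to 0.931 RPKM for the other 7 (the authors' RPKM). Its rise did not pass the threshold with spike-in scaling, without a filter, or without 1B replicate 3 or 4 or 7B replicate 2 or 3, although the slope stayed between 0.12 and 0.16. It was chosen for naming after its values were seen, since the naming rule did not reach it, as was RLG00011Zm00004b00492 below.

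The 7 rising members other than RLG00011Zm00004b00433 were without counts in some plants with few copies, as members chosen by slope tend to be. Of their 28 values in controls, 21 were 0; of their 84 values in 1B to 3B plants, 32 were 0; and of their 84 values in 4B to 7B plants, 1 was 0. At a depth of about 1 CPM per count, a 0 allows a level of up to 1.85 to 3.87 CPM, the worth of 3 counts in a library. The sum over all 8 rising members averaged 5.54 ± 1.25 CPM in controls, 17.5 ± 3.70 CPM at 1 copy, 25.8 ± 5.59 CPM at 2, 33.6 ± 16.3 CPM at 3, 68.4 ± 20.6 CPM at 4, 67.0 ± 33.5 CPM at 5, 65.9 ± 15.2 CPM at 6 and 86.4 ± 26.6 CPM at 7 copies (SD). The 7B mean was 4.95 times the 1B mean. The 4B, 5B and 6B means differed by less than the spread between plants of a group, and every carrier lay above the highest control. These members were selected by their slopes, so the sum is a description.

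Plants of 1 copy number could differ more than neighbouring groups. The summed level of the 8 rising members was 43.3 CPM in 5B replicate 1 and 90.7 CPM in 5B replicate 2, and it was 57.0 CPM in 7B replicate 1 against 93.4 and 108.7 CPM in the other 7B plants. The B-type genes of the label check summed to 615 and 722 FPKM in the 5B plants and to 883, 871 and 944 FPKM in 7B replicates 1, 2 and 3. Over the 24 carriers, the 28 pairs of rising members had a median Spearman correlation of 0.668 (0.373 to 0.890). After the group means were taken out of log2(CPM + 1), the median Pearson correlation of the deviations was 0.253 (-0.0831 to 0.698). All points of these correlations share libraries. The 8 members were also chosen by their rise over these same carriers, so positive Spearman correlations follow in part from that choice.

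**Figure D3:**
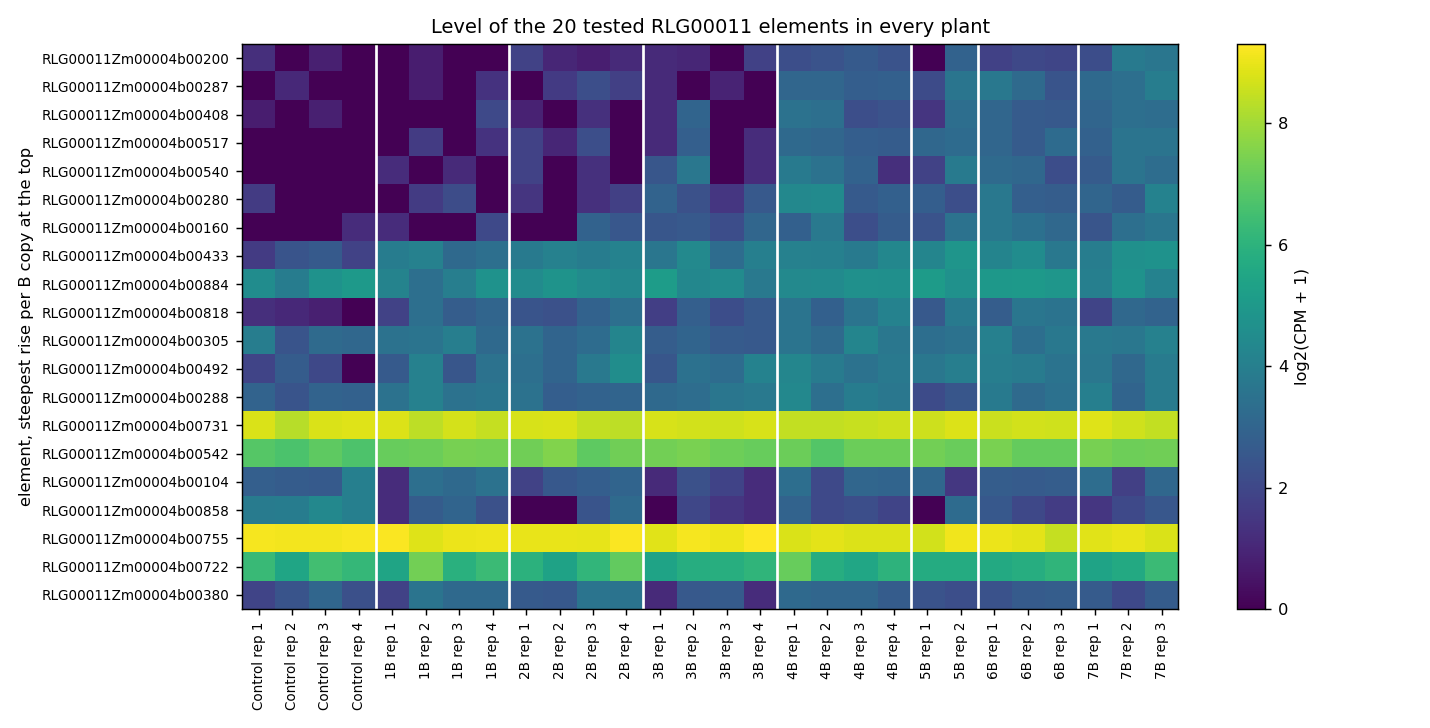
Level of the 20 tested RLG00011 elements, as log2(CPM + 1) by colour, in every plant, with plants ordered by B copy number and elements by slope (steepest at the top); white lines separate the copy-number groups. The upper 7 rows are dark in controls and most 1B to 3B plants, while the rows of RLG00011Zm00004b00755, RLG00011Zm00004b00731 and RLG00011Zm00004b00542 are bright throughout.

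None of the 5 most abundant members passed the dosage threshold. RLG00011Zm00004b00755 (5146 bp) had the highest level per length, with 95.5 RPKM in carriers and 109.7 RPKM in controls, followed by RLG00011Zm00004b00731 (5166 bp) with 74.6 RPKM in carriers and 78.3 RPKM in controls. In CPM, RLG00011Zm00004b00755 averaged 501 ± 65.3 in carriers (SD, n = 24) and 576 ± 12.04 in controls (n = 4), and its slope was -0.04 ± 0.02 log2 units per copy. The slope of RLG00011Zm00004b00731 was 0.0046 ± 0.02. RLG00011Zm00004b00542, RLG00011Zm00004b00722 and RLG00011Zm00004b00884 had slopes of -0.0058 ± 0.02, -0.10 ± 0.05 and 0.07 ± 0.04. The summed level of these 5 was 1052.9 to 1202.5 CPM over the carrier groups, against 1193 ± 98.9 CPM in controls.

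The 745 members that were not tested are described by their sum. Those with counts had a median of 5 counts over all 28 plants. Together they averaged 135 ± 39.2 CPM in controls, 158 ± 27.9 CPM at 1 copy, 174 ± 37.2 CPM at 2, 156 ± 24.2 CPM at 3, 227 ± 51.9 CPM at 4, 208 ± 57.6 CPM at 5, 226 ± 26.5 CPM at 6 and 236 ± 25.8 CPM at 7 copies (SD). The highest control had 191 CPM. Plants with 1 to 5 copies overlapped with the controls, all plants with 6 or 7 copies lay above them, and 10 of 24 carriers in all were above the highest control. No single one of these members was tested in the main fits, which used the filter. The slope of the sum was 0.11 log2 units per copy, against 0.39 for the sum of the 8 rising members.

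B presence was then compared, a contrast that the choice of the family did not use, although it shares the carrier plants with the dosage slope. Of the 20 tested members, 10 were higher and 1 was lower in carriers than in controls (edgeR adjusted p under 0.05 over 5359 TEs). Over all TEs tested, 23.7% were higher and 21.7% lower. With scaling by spike-in totals these background calls were 1521 higher and 604 lower instead of 1272 and 1162, and the members' counts were 11 and 1. Of the 13 members that passed the filter only through carriers, 9 were higher and 0 lower. Of the 7 that would also have passed on controls alone, 1 was higher and 1 lower. Of the 8 members that rose with dosage, 7 were among the 10 higher ones. That overlap is a description, since all 8 had passed the filter only through carriers. The same overlap over all TEs was not counted.

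**Figure D4:**
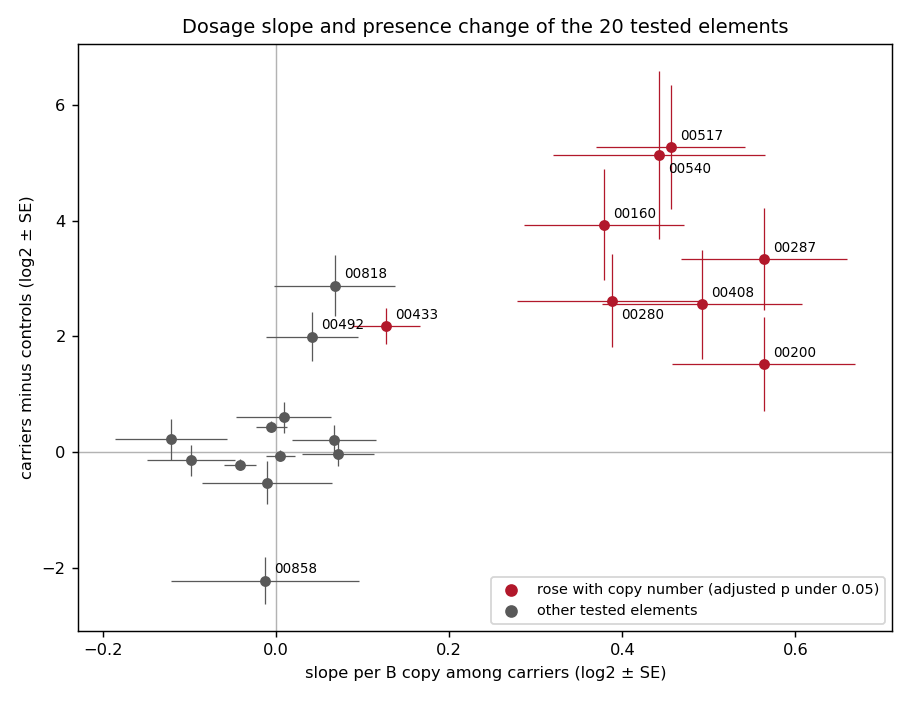
Difference of carriers minus controls (vertical axis, log2) against slope per B copy among carriers (horizontal axis, log2) for the 20 tested elements, with standard errors; labels are the last digits of the identifier. The 7 elements with slopes of 0.38 or more lie at the right, between 1.52 and 5.27 on the vertical axis, while RLG00011Zm00004b00818 and RLG00011Zm00004b00492 lie at 2.88 and 2.00 with slopes near 0 and RLG00011Zm00004b00858 is lowered.

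The members that passed the filter only through carriers were admitted on carrier levels, so their presence values are given as a description, without p-values. That filter favoured higher carrier levels but did not force them. RLG00011Zm00004b00104, of the same kind, averaged 5.45 CPM in carriers and 8.05 CPM in controls. RLG00011Zm00004b00517 and RLG00011Zm00004b00540 had 141 counts each in carriers and 0 in controls. Pooled over plants, that is 5.05 CPM in carriers, at least 7.58-fold higher than the 0.666 CPM that 3 counts over the 4 controls would give. RLG00011Zm00004b00160 had 161 counts in carriers and 1 in controls, a ratio of pooled CPM of 26.0 with an exact 95% interval of 4.59 to 1032. For RLG00011Zm00004b00287 the counts were 140 and 1, and the ratio was 22.6 (3.99 to 898). RLG00011Zm00004b00280 had a ratio of 9.46 (3.18 to 46.3), and RLG00011Zm00004b00200 one of 4.84 (1.60 to 23.9). These intervals cover counting error only. RLG00011Zm00004b00200 was the only one of the 8 rising members short of the threshold for presence, and RLG00011Zm00004b00280 was short of it without Control replicates 2 and 4 and 1B replicate 3.

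RLG00011Zm00004b00408, of the same kind and also given as a description, had 120 counts in carriers and 2 in controls, with a log2 difference of 2.55 ± 0.94 (SE). It missed the threshold without any 1 of the 4 controls, without 2B replicate 3, without 3B replicate 2 and without 1B replicate 4, which leaves all 1B plants at 0 counts.

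Among the members that passed only through carriers, RLG00011Zm00004b00818 and RLG00011Zm00004b00492 stood higher in carriers than in controls without passing the dosage threshold. Both were admitted on carrier levels, so their presence values are descriptions. RLG00011Zm00004b00818 (7622 bp) averaged 7.29 ± 3.66 CPM in carriers (SD, n = 24) and 0.800 ± 0.589 CPM in controls (n = 4), and all 24 carriers exceeded the highest control. Its log2 difference was 2.88 ± 0.53 (SE), while its slope among carriers was 0.07 ± 0.07. Already in 1B plants it had 2.58, 9.62, 5.75 and 7.16 CPM, and the 3 plants with 7 copies had 2.71, 7.85 and 6.88 CPM. RLG00011Zm00004b00492 (18411 bp) averaged 11.7 ± 4.35 CPM in carriers and 2.79 ± 2.23 CPM in controls, with 21 of 24 carriers above the highest control (log2 difference 2.00 ± 0.42, slope 0.04 ± 0.05). RLG00011Zm00004b00433, admitted in the same way, had a log2 difference of 2.18 ± 0.31, with all carriers above all controls, again as a description.

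Of the abundant members, RLG00011Zm00004b00542 (9544 bp) was higher in carriers by a small margin. The carriers had 111 CPM at the lowest (4B replicate 2), a median of 152 CPM and 187 CPM at the highest (2B replicate 2), against 114, 101, 125 and 104 CPM in the controls. In 23 of 24 carriers it was above the highest control (log2 difference 0.44 ± 0.10, edgeR adjusted p = 6.4e-04; 0.32 with adjusted p = 0.0822 without Control replicates 2 and 4 and 1B replicate 3). RLG00011Zm00004b00755 had a log2 difference of -0.22 ± 0.09 (edgeR adjusted p = 0.0585) and did not pass, but it did with RLE size factors (0.0393), with DESeq2 (0.0316) and in 13 of the fits that left out 1 library. RLG00011Zm00004b00731, RLG00011Zm00004b00722 and RLG00011Zm00004b00884 had differences of -0.06 ± 0.10, -0.14 ± 0.27 and -0.04 ± 0.21 (edgeR adjusted p = 0.623, 0.710 and 0.899). With spike-in scaling the last 4 differences were positive and not past the threshold.

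RLG00011Zm00004b00858 (7568 bp) fell in carriers, alone among the tested members. It stood at 0 to 8.42 CPM in the carriers, with a mean of 3.38 ± 2.52 CPM (SD, n = 24), against 13.6, 14.2, 19.5 and 15.4 CPM in controls. All 24 carriers were below the lowest control, and the log2 difference was -2.22 ± 0.41 (edgeR adjusted p = 3.7e-05). The level did not follow copy number among carriers, with 4.42 ± 2.40 CPM in 1B plants (n = 4), 3.25 ± 1.51 CPM in 7B plants (n = 3) and a slope of -0.01 ± 0.11. The 4 remaining tested members had presence differences between -0.53 and 0.60 and passed neither test.

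The authors' deposited table of each copy number against the same 4 controls, an edgeR likelihood-ratio test per the file headers, gives the same family by copy number. At a false discovery rate under 0.05, the authors' deposited table lists 1, 5, 6, 20, 11, 17 and 25 of the 765 members as higher for 1 to 7 copies in turn. The share of all 60247 elements that the authors' deposited table lists as higher was 0.526%, 1.3%, 1.22%, 1.6%, 1.16%, 1.71% and 2.18% in the same order. As lower, the authors' deposited table lists 0, 0, 1, 0, 0, 1 and 2 members for 1 to 7 copies, against 0.607%, 0.619%, 0.798%, 0.622%, 0.193%, 0.669% and 0.498% of all elements. Of the 8 rising members, the authors' deposited table lists 0, 2, 5, 8, 7, 7 and 8 as higher. Those 8 were chosen by their rise over the same carrier plants, so these counts are a description and no separate support. All 7 comparisons share the 4 controls, and the groups differ in size. Of the 25 members listed in 7B, 15 were not tested here because of low counts. For RLG00011Zm00004b00287, the authors' deposited table gives log2 fold changes of 1.31, 2.95, 1.095, 4.66, 4.88, 4.95 and 5.46 for 1 to 7 copies. Values there can differ in sign from those here. For RLG00011Zm00004b00755 the authors' deposited table gives 0.178 at 7 copies, while its mean here was 475 CPM in 7B and 576 CPM in controls.

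In length, the rising members overlapped with the others. They measured 3724 to 11524 bp with a median of 9358.5 bp, and the 12 other tested members 4499 to 18411 bp with a median of 7217.5 bp. Their levels per length in carriers were 0.257 to 4.26 RPKM, against 0.428 to 95.5 RPKM for the other 12.

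Other Gypsy elements were set beside the family for context. The family was chosen on the dosage slope, so its own share is not ranked among them. Of all other Gypsy elements without zmB, 94 of 704 rose with dosage (13.4%), and of Gypsy elements with zmB, 32 of 50 (64.0%). The pooled share without zmB covers unlike families. Among the other families with at least 10 tested elements, it ran from 0% (RLG00005 and RLG00008) to 90% (RLG00020, 18 of 20). Near-identical copies can share reads, and how reads that match several copies were counted was not given in the sources used here. Which copy a read of these members came from, on an A or a B chromosome, is therefore uncertain, and the part of B-borne copies in these rises was not tested.

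The elements whose levels were most like the 2 leading members over the 24 carriers came from other families. For RLG00011Zm00004b00287 the highest Spearman correlations among 5073 TEs were with RLG00010Zm00004b00743 (0.923) and RLG00001Zm00004b04850 (0.886), both without counts in controls, then with the B-tagged Helitron DHH00002zmB00064 (0.880), RLX04077Zm00004b00002 (0.876) and the B-tagged Gypsy element RLG00020zmB00009 (0.869). For RLG00011Zm00004b00200 they were DHH00001Zm00004b05606 (0.842), RLC00002Zm00004b11332 (0.838), RLX08174Zm00004b00001 (0.815), RLG00020Zm00004b00197 (0.811) and the B-tagged RLX01124zmB00001 (0.804). None of these 10 was a member of RLG00011, and 3 carried the zmB tag. These are descriptions over plants that share their copy numbers.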

How the data were processed

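The authors deposited raw read counts for TEs and for ERCC spike-in RNAs, RPKM values for the same TEs and FPKM values for genes, per the file headers and values. Their own comparisons came as log2 fold changes and p-values with a false discovery rate, in the authors' deposited table. The tools named in the labels, per the submitters' processing notes, are edgeR, Cuffdiff, TopHat2, Bowtie2 and cutadapt 1.16, without their roles. The assay of the TE table was taken as RNA-seq. The genome build was not given in the sources used here.

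edgeR 4.0.16 in R 4.3.3 (glmQLFTest, TMM factors, filterByExpr by group) was run on the TE counts. B presence set the average over 7 carrier groups against controls in 1 fit of 28 libraries; B dosage was the slope per copy in the 24 carriers. P-values were adjusted after Benjamini and Hochberg across every tested TE, with a threshold of 0.05. A standard error is the log2 value divided by the square root of F. Element lengths were solved from the deposited RPKM, counts and TMM factors, and all came out as whole numbers to within 0.05 bp. Alternatives were other scalings, DESeq2 1.42.0, no filter, a replicate block and left-out libraries. The members and named elements were chosen with earlier results of these data known. Named were the 2 leading members, the 5 most abundant and, per direction, up to 6 called for presence and up to 6 for dosage. A planned test of genes overlapping members was not run, since the files used give no TE positions.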

Additional observations from a re-analysis of the deposited data

Results flagged for a closer look

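In groups of 4 plants, 7 of 93 checked sets had a plant whose gap to the nearest other plant exceeded Dixon's 95% critical value. In 5 of the 7, 1 plant had counts and the other 3 had none. The gap then equalled the whole range, whatever the size of the count. The usual chance rate of about 1 in 20 does not apply to such sets, so the 7 flags are not compared with chance. RLG00011Zm00004b00200 had 0.687 CPM in 1B replicate 2, RLG00011Zm00004b00408 had 3.18 CPM in 1B replicate 4, RLG00011Zm00004b00287 had 1.09 CPM in Control replicate 2, RLG00011Zm00004b00160 had 1.28 CPM in Control replicate 4, and RLG00011Zm00004b00280 had 2.04 CPM in Control replicate 1. RLG00011Zm00004b00408 stood at 6.99 CPM in 3B replicate 2, and the next 3B plant had 1.15 CPM. RLG00011Zm00004b00542 was lowest in 4B replicate 2 with 111 CPM, against 147 to 149 CPM in the other 4B plants.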

How the results depend on the processing

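The rising count of 8 stood between 7 and 12 under other scalings, DESeq2, the log2 of the copy number, no filter, controls added as 0 copies and the replicate block (8), and between 5 and 10 with 1 library left out; 0 members fell except with controls added as 0 copies (2). Presence calls ranged from 10 to 13 with 1 library left out, with 9 to 11 higher and 1 to 2 lower. With RLE factors and with DESeq2, 2 were lower. Without a filter 22 of 663 were called, 8 of them lower, and the median log2 difference over all TEs was -0.27. Over the settings other than 1 library left out, calls among all TEs ranged from 900 to 1521 higher and from 604 to 3427 lower. The 8 lower members are therefore not read as a trait of the family. The summed level of the family moved with the scaling. Spike-in totals gave a presence ratio of 0.39 and a slope of 0.031, but they also moved the median TE from 0.06 to 0.38. Without the most abundant member these were 0.22 and 0.037, and the slope was 0.023 without the 3 libraries in which RLG00021Zm00004b00084 took 17.7% to 31.4% of the TE counts; with 1 library left out it ranged from 0.0069 to 0.021, and the presence ratio from -0.0076 to 0.07.

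Of 208 values of the 16 named members under other settings and 782 with 1 library left out, 0 of those past the threshold changed sign. Without the 3 libraries, presence calls were 7 higher and 1 lower. Reversals of values short of it were, for presence with spike-in scaling, 0.11 (RLG00011Zm00004b00755), 0.24 (RLG00011Zm00004b00731), 0.16 (RLG00011Zm00004b00722) and 0.26 (RLG00011Zm00004b00884; -0.20 to 0.11 with 1 library left out). For dosage RLG00011Zm00004b00542 gave 0.016 with spike-in scaling, 0.033 with controls added, 0.0011 without the 3 libraries and -0.0071 to 0.0049 with 1 library left out. RLG00011Zm00004b00731 gave -0.0031 with controls added and -0.0026 to 0.016 with 1 left out, and RLG00011Zm00004b00858 gave 0.0099 with the replicate block, 0.027 without the 3 libraries and -0.040 to 0.027 with 1 left out. The causes were not tested. Calls that were lost included the slope of RLG00011Zm00004b00433 (edgeR adjusted p = 0.0857 with spike-in scaling, 0.166 without a filter). RLG00011Zm00004b00280 and RLG00011Zm00004b00408 missed the presence threshold without the 3 libraries, and their presence values are descriptions. Same-numbered plants did not deviate together (median r = -0.0067 over 87 pairs; 3 of 28 libraries correlated best with their own number), so the numbers pair no plants. The replicate block changed no presence count (10 higher, 1 lower). Tests of genes overlapping members were not run. Of the 8 rising members, 7 had 90 to 176 counts each over 24 carriers, and the 643 members not tested had a median of 5 counts over 28 plants.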

Other observations

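RLG00011Zm00004b00722 varied between plants of 1 copy number. It stood at 159 CPM in 1B replicate 2, 135 CPM in 2B replicate 4 and 139 CPM in 4B replicate 1, and the other carriers lay between 40.6 and 81.1 CPM, against 43.6 to 87.7 CPM in controls. The same 3 plants held the highest levels of RLG00011Zm00004b00492 among carriers of 1, 2 and 4 copies, with 15.8, 22.4 and 18.5 CPM. Both patterns were noticed after the values were seen and were given no test.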
